A study of Mus musculus with 6 samples.

Results

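The 10 genes described here encode the TGF-beta ligands (Tgfb1, Tgfb2, Tgfb3), their receptors (Tgfbr1, Tgfbr2), the SMAD proteins that carry or damp the signal (Smad2, Smad3, Smad4, Smad7) and the corepressor SnoN (Skil). They were taken by symbol from the 21883 protein-coding genes that RefSeq places on the nuclear chromosomes of GRCm38, and all 10 matched. The data are CUT&Tag peak lists from B16 cells, a cultured mouse melanoma line. In CUT&Tag an antibody directs a transposase to cut and tag the DNA around its target. The study asks about thymine DNA glycosylase in cancer without p53, and both libraries used here are labelled wild type, with no treatment named. One was made with an antibody to H3K4me3, a histone mark of active promoters, and 1 with an antibody to p300, an acetyltransferase of active promoters and enhancers. The 4 H3K9me3 libraries, from cells of several genotypes, were not analysed here, and the values below describe wild-type cells only.

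TGF-beta ligands are secreted in a latent form and, once freed, bind the type II receptor encoded by Tgfbr2, which phosphorylates the type I receptor encoded by Tgfbr1. The active type I receptor phosphorylates SMAD2 and SMAD3, which join SMAD4 and enter the nucleus, where they recruit coactivators such as p300. SMAD7 blocks the receptor and SnoN blocks the SMAD complex, and the genes of both are themselves switched on by the pathway as negative feedback. In melanocytes TGF-beta slows growth and pigment formation, and melanoma cells commonly secrete it.

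On the nuclear chromosomes 27019 H3K4me3 peaks and 6512 p300 peaks were listed. Read totals are unknown. Summit reads were solved from the deposited values, with medians of 79.5 for H3K4me3 and 39 for p300 and minima of 15 and 14. Where no peak is given, none was detectable at these depths. Of 8 melanocyte markers, 7 had H3K4me3 at a gene end (Mlana did not), against 0 of 5 leukocyte, 0 of 4 epithelial, 0 of 3 endothelial and 2 of 5 fibroblast markers (Col1a1 and Pdgfrb).

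H3K4me3 lay at an end of 9 of the 10 genes, p300 at an end of Smad7 alone. An end here means within 1 kb of either annotated end of the gene. Over all protein-coding genes 50.5% had H3K4me3 at an end and 13.5% had p300 there. The exact binomial 95% interval of the 9 of 10 ran from 55.5 to 99.7% and that of the 1 of 10 from 0.253 to 44.5%. These intervals cover counting error only, and treat genes as independent draws, which they are not. Tgfb2 was the gene without H3K4me3 at an end. Among all genes with H3K4me3 at an end, several of these peaks ranked low by fold. The highest fold at an end stood at percentile 0.987 for Smad3, 1.76 for Smad7, 2.11 for Tgfb1 and 7.59 for Tgfb3. In the rest it stood between 38.9 (Tgfbr1) and 83.8 (Smad4). By the most reads the percentiles ran from 14.2 (Smad2) to 81.0 (Tgfb3). Peaks that lay inside the gene, more than 1 kb from both ends, were found for H3K4me3 in 5 genes (Tgfb1, Tgfb2, Tgfbr2, Smad3 and Smad7, background 21.6%) and for p300 in 2 (Tgfbr2 and Smad3, background 7.99%). For p300 inside, the background was 16.7% among genes of the same length classes, and no such share was computed for H3K4me3. When every peak in the gene or up to 50 kb beyond it was counted, all 10 had H3K4me3 (background 75.5%) and 7 had p300 (background 44.2%). In that reach the p300 background was 62.8% among genes with H3K4me3 at an end and 48.1% among genes of the same length classes. Smad2, Smad4 and Tgfb3 had no p300 peak in that reach. With 1 library per antibody there is no replicate check, and no test was made between the genes and the background.

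**Figure D1:**
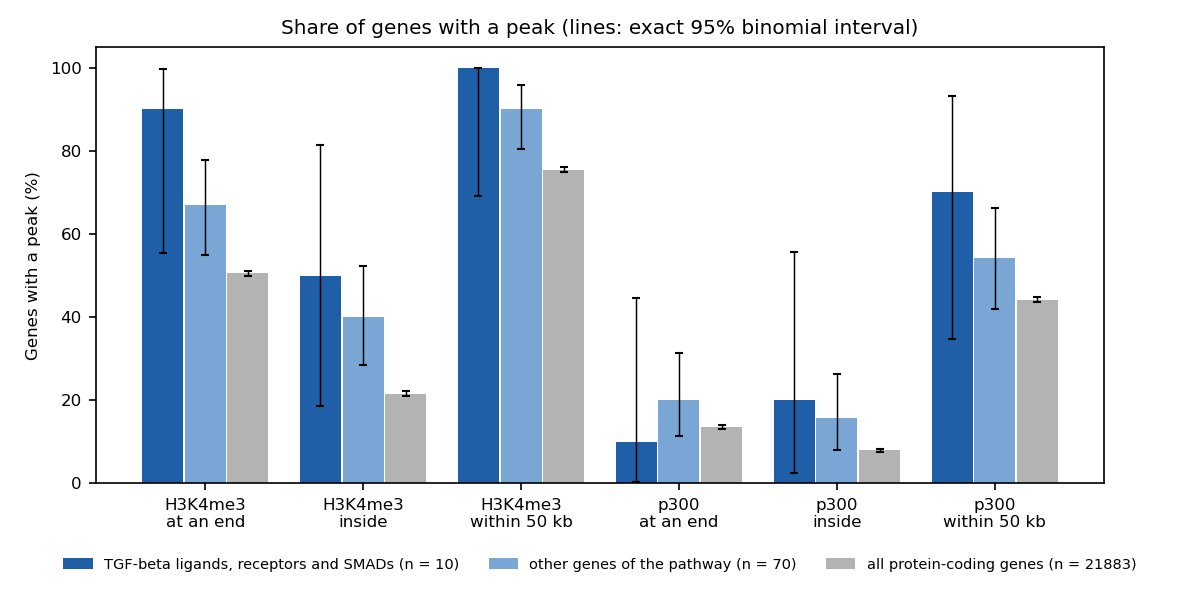
Share of genes (%) with an H3K4me3 or p300 peak at a gene end, inside the gene, or in the gene and up to 50 kb beyond it, for the 10 genes (dark blue), 70 other genes of the pathway (light blue) and all 21883 protein-coding genes (grey); lines are exact 95% binomial intervals. H3K4me3 lies at an end of 9 of the 10 genes beside a background of 50.5%, and p300 at an end of 1 beside 13.5%.

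The RefSeq promoter table for GRCm38.p6 matched 5 of the 10 genes and places their starts. H3K4me3 came within 1 kb of the start in 4 of these 5 (52.8% of the 17491 protein-coding genes in the table) and p300 in 0 (14.4%). The 250 bases before each start are printed because the H3K4me3 peaks met them in different ways. The peaks of Tgfbr1 (chr4:47352972-47353221, plus strand) and Tgfbr2 (chr9:116175364-116175613, minus strand) covered bases of this stretch. Those of Tgfb1 (chr7:25686752-25687001, plus strand) and Smad3 (chr9:63757995-63758244, minus strand) lay on 1 or both sides of it without touching it. Tgfb2 (chr1:186705990-186706239, minus strand) had no peak within 1 kb. Each sequence runs 5′ to 3′ towards the start, and capitals mark the motifs found.
Tgfbr1: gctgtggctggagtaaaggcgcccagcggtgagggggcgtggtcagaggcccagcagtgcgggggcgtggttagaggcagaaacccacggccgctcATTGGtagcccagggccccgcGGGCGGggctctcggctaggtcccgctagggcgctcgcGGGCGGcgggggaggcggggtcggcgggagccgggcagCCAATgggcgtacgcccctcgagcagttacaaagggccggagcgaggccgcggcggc
Tgfbr2: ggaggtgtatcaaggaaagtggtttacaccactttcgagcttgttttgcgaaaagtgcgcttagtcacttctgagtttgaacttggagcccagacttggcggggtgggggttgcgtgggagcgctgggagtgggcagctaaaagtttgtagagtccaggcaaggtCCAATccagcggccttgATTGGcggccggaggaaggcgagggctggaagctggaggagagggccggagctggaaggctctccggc
Tgfb1: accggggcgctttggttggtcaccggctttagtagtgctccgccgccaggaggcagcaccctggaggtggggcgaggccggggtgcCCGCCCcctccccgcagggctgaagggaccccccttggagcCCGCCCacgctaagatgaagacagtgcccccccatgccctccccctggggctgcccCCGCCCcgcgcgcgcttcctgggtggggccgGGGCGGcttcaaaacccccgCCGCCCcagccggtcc
Smad3: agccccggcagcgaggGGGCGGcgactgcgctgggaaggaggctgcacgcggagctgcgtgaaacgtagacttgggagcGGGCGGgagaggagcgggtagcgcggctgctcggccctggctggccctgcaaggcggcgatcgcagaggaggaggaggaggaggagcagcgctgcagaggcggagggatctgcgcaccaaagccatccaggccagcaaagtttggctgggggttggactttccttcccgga
Tgfb2: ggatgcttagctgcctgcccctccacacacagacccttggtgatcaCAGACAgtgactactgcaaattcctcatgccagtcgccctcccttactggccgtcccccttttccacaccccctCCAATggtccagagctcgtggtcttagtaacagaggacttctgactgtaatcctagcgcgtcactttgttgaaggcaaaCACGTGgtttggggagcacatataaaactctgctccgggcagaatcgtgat

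Capitals mark matches on either strand to GGGCGG (GC box), CCAAT (the box of that name), CACGTG (E-box) or CAGACA (core of the SMAD-bound CAGA box). TGACGTCA (CRE), TGACTCA or TGAGTCA (AP-1 site) and GTCTAGAC (SMAD palindrome) were also searched and had no match in these 5 stretches. No printed matches overlapped one another. The GC box occurred 5 times before Tgfb1, 2 times before Tgfbr1 and 2 times before Smad3, and 32.7% of all 32851 promoters of this length held it. The CCAAT box occurred 2 times before Tgfbr1, 2 times before Tgfbr2 and 1 time before Tgfb2 (33.8% of all promoters). The promoter of Tgfb2 also held the E-box (6.02% of all) and the CAGA core (17.1%), each 1 time. The shares for the motifs with no match were 1.55% for the CRE, 4.46% for the AP-1 site and 0.167% for the SMAD palindrome. A match in letters is not a bound site.

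At the 5 starts printed, the promoters with H3K4me3 within 1 kb were richer in G and C than that of Tgfb2. Tgfb2 was the only gene on its side of this contrast, which rests on the 1 kb limit. An H3K4me3 peak with 93 reads began 1339 bp past its start. A relation between G and C and the mark was not tested. The share of G and C was 75.2% before Tgfb1, 74.8% before Tgfbr1, 69.2% before Smad3 and 58.4% before Tgfbr2, and 53.6% before Tgfb2, beside a median of 52.4% over all promoters. The ratio of observed to expected CpG at these 5 starts was 0.460 for Tgfb2, 0.600 for Tgfb1, 0.638 for Tgfbr2, 0.794 for Smad3 and 0.876 for Tgfbr1 (median over all promoters 0.374). A second annotated start of Tgfbr1, at 47386216, had 52.8% G and C, a CpG ratio of 0.175 and no H3K4me3 peak over the 250 bases before it.

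Among the ligand genes, Tgfb1 and Tgfb3 had H3K4me3 at an end and Tgfb2 had it deeper in the gene and outside it. Tgfb1 (chromosome 7, 25687002 to 25705077) encodes the most widely expressed of the ligands. Its peak at the end, from 25687196 to 25687693, began 194 bp past the start with a fold of 3.45, a −log10 q of 17.3 and 75 reads at the summit. A stronger peak of 1428 bp, fold 5.26 and 107 reads began 1023 bp past the start. It is the nearest H3K4me3 peak that the 1 kb limit leaves out, and the nearest that it keeps is one of Skil at 918 bp. Tgfb1 lies among close neighbours, with an end of B9d2 440 bp from its own. Both p300 peaks in reach lay at other genes. One, of fold 5.67 and 30 reads, covered ends of Bckdha and Exosc5 27594 bp away, and the other, of fold 6.04 and 45 reads, lay 147 bp from an end of Hnrnpul1 and 49838 bp from Tgfb1, just inside the 50 kb limit.

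Tgfb2 (chromosome 1, 186622787 to 186709697) had 3 H3K4me3 peaks inside the gene and none at an end. Its start in the promoter table lies 3708 bp inside the annotated upper end. The nearest H3K4me3 peak, of 392 bp, fold 4.18 and 93 reads, began 1339 bp past that start. A second, of fold 4.23 and 93 reads, began 2749 bp past the start. The third, of fold 7.07 and 46 reads, was 22655 bp from the start. Outside the gene, an H3K4me3 peak of fold 7.63 and 47 reads lay 12369 bp beyond the lower end, and one of fold 9.91 and 153 reads lay 38932 bp beyond the upper end, across an end of Rrp15. The only p300 peak in reach, of fold 5.52 and 27 reads, lay 21103 bp beyond the gene, within Rrp15, and overlapped no H3K4me3. Genes with 3 or more H3K4me3 peaks inside made up 4.35% of all protein-coding genes and 17.7% of the 4377 in the longest of 5 length classes, to which Tgfb2 belongs.

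Tgfb3 (chromosome 12, 86056743 to 86079041) carried the most reads at an end of all 10 genes. A peak of 1202 bp across its upper end had a fold of 4.40, a −log10 q of 58.6 and 190 reads, and a second, 881 bp from that end, had a fold of 3.03 and 118 reads. By reads the stronger peak stood at the 92.2nd percentile of the H3K4me3 list and by fold at the 19.1st. A peak of fold 4.10 and 146 reads lay 3477 bp beyond the gene and covered an end of Ift43. The nearest p300 peak was over 50 kb away.

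The receptor genes each had 1 wide H3K4me3 peak at the start, and Tgfbr2 alone of the pair had p300 inside the gene. Tgfbr1 (chromosome 4, 47353222 to 47414926), which encodes the type I receptor kinase, had an H3K4me3 peak of 1546 bp that ended 50 bp before the start, with a fold of 6.65, a −log10 q of 58.4 and 126 reads. Tgfbr2 (chromosome 9, 116087695 to 116175363), which encodes the type II receptor kinase, had one of 1834 bp across the start, with a fold of 7.03, a −log10 q of 63.0 and 130 reads. Both peaks also held an end of a noncoding gene, Gm32435 at Tgfbr1 and Gm40582 at Tgfbr2, so the mark cannot be given to 1 gene of either pair. The p300 peak nearest to Tgfbr1, of fold 5.17 and 48 reads, covered an end of Col15a1 39676 bp away. In Tgfbr2 a p300 peak lay inside the gene, 11467 bp from the lower end and 75604 bp from the start. It had a fold of 6.36, the highest among the 10 p300 peaks in reach of the 10 genes, but 26 reads, the fewest. An H3K4me3 peak of fold 8.68 and 73 reads contained it, and another H3K4me3 peak inside Tgfbr2 had a fold of 5.00 and 22 reads.

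Of the SMAD genes, Smad2 and Smad4 had 1 H3K4me3 peak at an end and none inside, and Smad3 and Smad7 had 5 inside each. Smad2 and Smad4 encode the receptor-activated SMAD2 and the common partner SMAD4. Smad2 (chromosome 18, 76241090 to 76311748) had a single H3K4me3 peak in the gene and the 50 kb on both sides, of 641 bp across its lower end, with a fold of 7.26, a −log10 q of 36.4 and 71 reads. Its nearest p300 peak was 314965 bp from that peak. Smad4 (chromosome 18, 73634790 to 73703791) had the highest fold at an end of the 10 genes, 9.72, in a peak of 773 bp with a −log10 q of 70.8 and 114 reads. That peak also held an end of the noncoding gene 4930578L24Rik, 135 bp from the end of Smad4. Other H3K4me3 peaks of fold 6.94 and 5.52 lay 11057 bp and 7050 bp outside Smad4, and none was inside.

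Smad3 (chromosome 9, 63646766 to 63757994), which encodes the other receptor-activated SMAD of the pathway, had the most peaks of the 10 genes, with 12 for H3K4me3 and 3 for p300 in the gene or within 50 kb. At 111229 bp it is also the longest of the 10. Of its H3K4me3 peaks, 5 lay outside the gene by more than 1 kb. Those included peaks within Aagab, one across ends of Iqch and Aagab, and one over an end of the noncoding gene Gm35941. At its start, 1 H3K4me3 peak lay 363 bp upstream and another 581 bp downstream, with 943 bp between them in which no peak was listed. Their folds were 3.05 and 3.01 and their summits held 96 and 95 reads. The 5 H3K4me3 peaks inside the gene had folds from 3.29 to 7.40, and the strongest of them, with 136 reads and a −log10 q of 68.6, lay 11092 bp from the start. The 3 p300 peaks all lay inside Smad3. The one 11404 bp from the start, of fold 4.66 and 31 reads, sat within that strongest H3K4me3 peak, and one 51533 bp from it, of fold 5.04 and 44 reads, overlapped an H3K4me3 peak of fold 6.21. The one 61776 bp from the start, of fold 5.55 and 42 reads, overlapped none and was 1394 bp from the nearest. Having 3 or more p300 peaks inside was found for 0.562% of protein-coding genes and for 2.67% of those in the longest length class, that of Smad3.

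Smad7 (chromosome 18, 75367365 to 75395935), which encodes the inhibitory SMAD7, was the one gene with p300 at an end. The p300 peak ran from 75366691 to 75367234 and ended 131 bp short of the gene's lower end, with fold 6.20, a −log10 q of 20.7 and 47 reads. It stood at the 61.1st percentile of the p300 list by fold and at the 63.3rd by reads. An H3K4me3 peak of 497 bp, fold 3.34 and 87 reads overlapped it. The p300 peak also covered an end of the noncoding gene Gm20544. A further 5 H3K4me3 peaks lay inside Smad7, with folds from 3.00 to 4.78 and 73 to 120 reads at their summits. By fold they stood between percentiles 3.90 and 24.9 of the H3K4me3 list, and by −log10 q between 32.1 and 45.6. None was in the stronger 50% of the list by fold or by −log10 q, though by summit reads Smad7 kept H3K4me3 inside. The limit of 5 used next was set after the data were seen. Having 5 or more was found for 1.68% of protein-coding genes and for 15 of the 4376 in the length class of Smad7, or 0.343%. Smad3 reached 5 as well, in a length class where 8.02% of genes did.

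Skil (chromosome 3, 31095058 to 31122923) had 2 H3K4me3 peaks at its lower end. One of 484 bp lay 521 bp inside the gene, with a fold of 7.65, a −log10 q of 39.0 and 73 reads, and the other lay 918 bp outside, with a fold of 5.26 and 51 reads. Its nearest p300 peak, of fold 4.91 and 28 reads, lay 37666 bp away and 4034 bp from an end of Prkci. The p300 peak had the lowest −log10 q of those in reach of the 10 genes, 9.90.

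**Figure D2:**
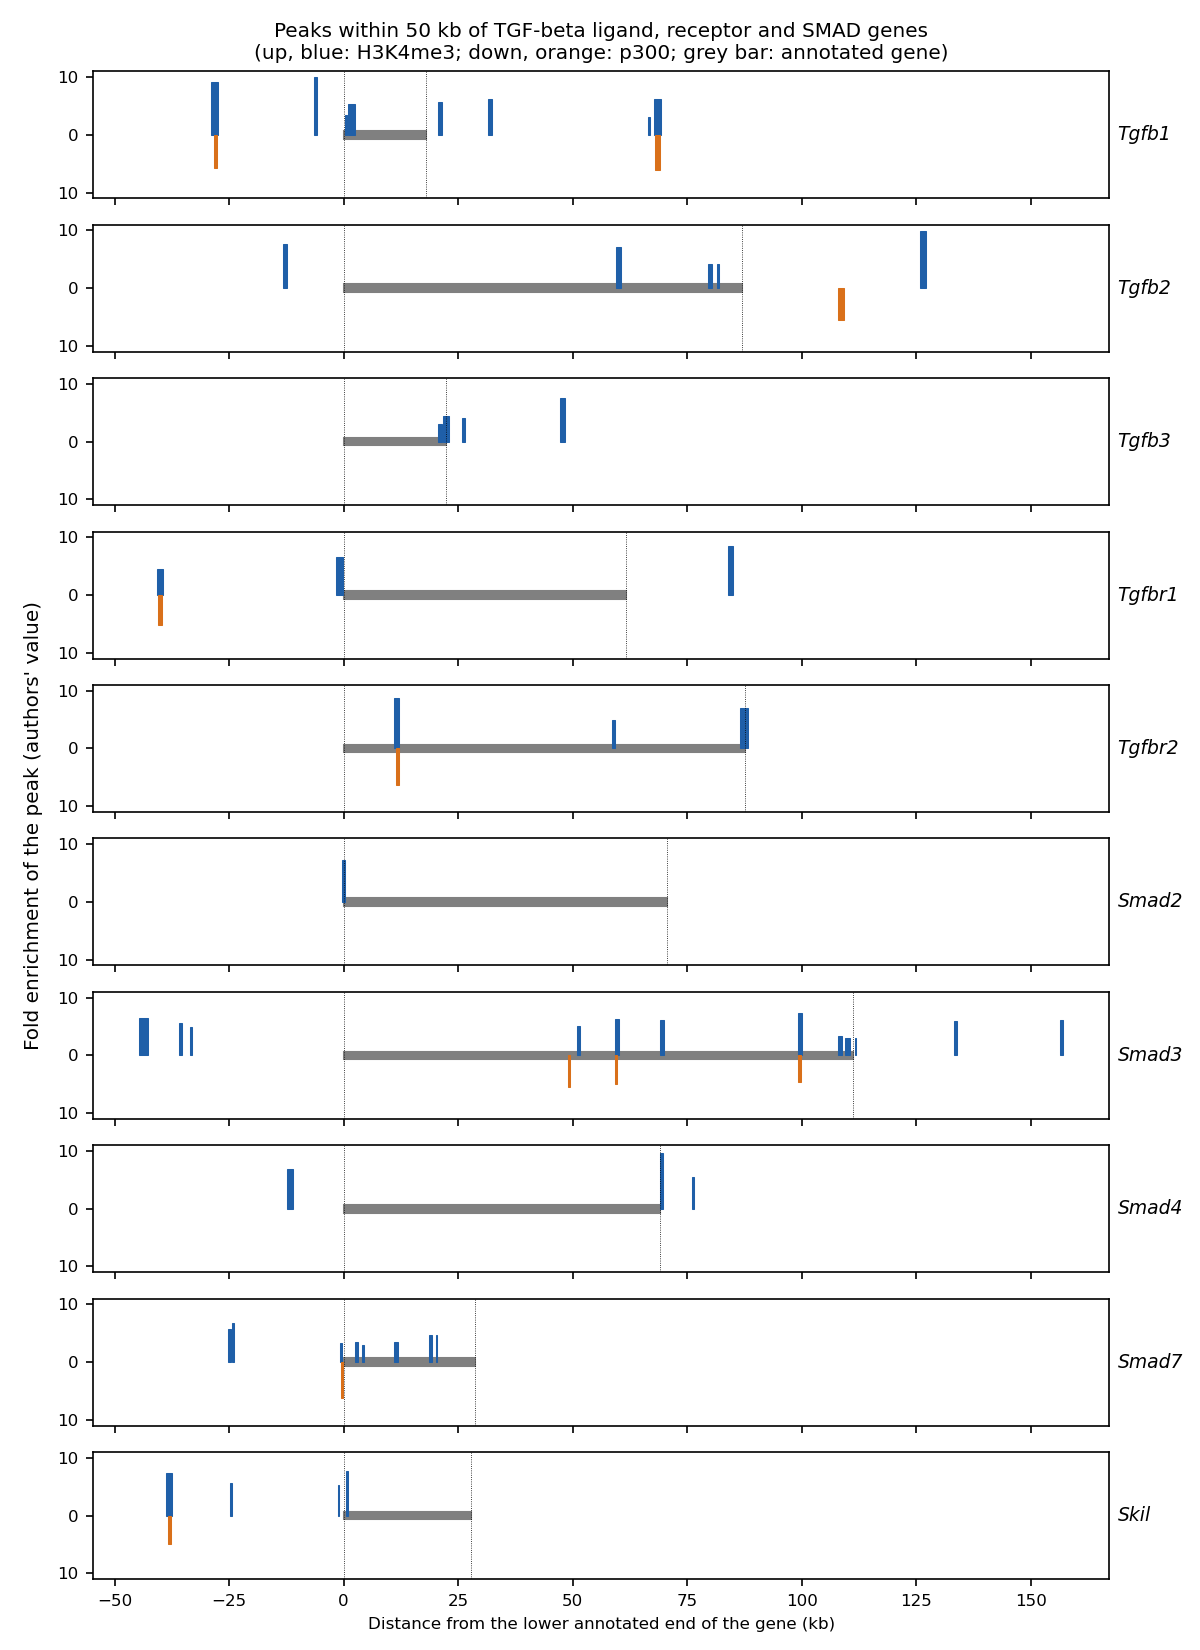
H3K4me3 peaks (blue, upward) and p300 peaks (orange, downward) within 50 kb of each of the 10 genes, with the distance from the lower annotated end of the gene in kb on the x axis, the authors' fold enrichment on the y axis, and the annotated gene as a grey bar between dotted lines. Smad3 and Smad7 hold 5 H3K4me3 peaks each inside the gene, and Smad2 has 1 H3K4me3 peak in the whole window. A p300 bar lies within 1 kb of an end of Smad7 alone.

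Fold and reads ranked the genes differently. By the highest fold at an end the order was Smad4 (9.72), Skil (7.65), Smad2 (7.26), Tgfbr2 (7.03), Tgfbr1 (6.65), Tgfb3 (4.40), Tgfb1 (3.45), Smad7 (3.34) and Smad3 (3.05). By reads at the summit Tgfb3 came first with 190, then Tgfbr2 with 130, Tgfbr1 with 126, Smad4 with 114, Smad3 with 96, Smad7 with 87, Tgfb1 with 75, Skil with 73 and Smad2 with 71. With 1 library, none of these steps can be set against a spread. As read here, the deposited fold divides the summit by a background level, and this level was 42.4 reads under the peak of Tgfb3, 30.8 at Smad3, 25.3 at Smad7 and 21.0 at Tgfb1, against 8.67 at Skil and 8.92 at Smad2. For these 4 of 9 genes it was above the upper quartile of the list, 19.7 reads, as it was for 37.0% of all genes with H3K4me3 at an end. Taken over the 9 genes, the median of the highest fold at an end was 6.65 and of the most reads 96, against 7.28 and 133 over the 11041 genes with H3K4me3 at an end.

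**Figure D3:**
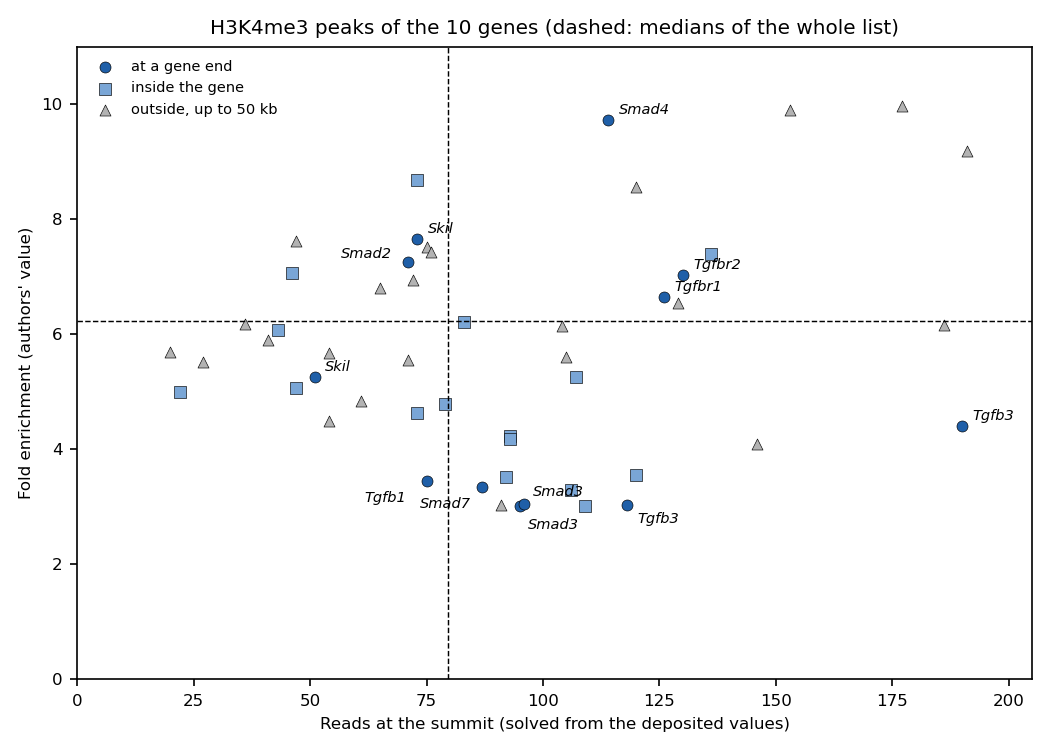
Fold enrichment (authors' value, y axis) against reads at the summit (x axis) for the 51 H3K4me3 peaks of the 10 genes, with peaks at a gene end as dark circles with gene names, peaks inside as light squares and peaks outside as grey triangles; dashed lines are the medians of the whole list, 6.24 and 79.5 reads. Tgfb3 with 190 reads and the Smad3 peaks with 96 and 95 reads sit right of the reads median but below the fold median, while Skil with 73 reads and Smad2 with 71 sit above the fold median and left of the reads median.

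Of the 10 p300 peaks in reach of these genes, 8 overlapped an H3K4me3 peak, a share near the 85.5% of all 6512 p300 peaks. The exceptions were the peak near Tgfb2 and 1 of the 3 in Smad3. The 10 peaks had folds from 4.66 to 6.36 and from 26 to 48 reads, and 7 lay below the median fold of the p300 list, 5.76. Of the 5 that lay outside a member gene by more than 1 kb, 3 were within 1 kb of an end of another protein-coding gene, and 37.5% of all p300 peaks lay that close to an end of a protein-coding gene. Each p300 peak was next counted only for the protein-coding gene nearest to it, with noncoding genes left out. In that count 3 of the 10 genes kept a peak (Smad3, Tgfbr2 and Smad7), with a background of 21.7%. The peak of Smad7 also covered an end of the noncoding gene Gm20544. The reach of 50 kb also mattered, since 4 of the 10 genes had p300 within 25 kb, where the background fell to 34.5%. An end of another annotated gene lay within 1 kb of an end of 5 of the 10 genes (Tgfb1, Tgfbr1, Tgfbr2, Smad4 and Smad7), and this was true of 34.7% of all protein-coding genes.

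The other genes of the family and pathway had H3K4me3 at an end in 47 of 70, p300 at an end in 14 and p300 within 50 kb in 38, beside backgrounds of 50.5, 13.5 and 44.2%. The groups hold 4 to 16 genes each, and differences between them were not tested. A count by nearest gene is not given for these 70 genes, so some of the peaks may belong to neighbouring genes. Of 13 other ligands 3 had H3K4me3 at an end, namely Inha (fold 6.84), which encodes an inhibin subunit, Gdf15 (6.04) and Gdf11 (5.87), and only Gdf15, a ligand induced by stress, had p300 there (5.84). Within 50 kb the highest p300 folds of the group were those of Gdf15 (6.87), Nodal (6.55), Inha (5.96) and Lefty1 (5.16). Of 11 other receptors 9 had H3K4me3, led by Tgfbr3 (8.59), which encodes the coreceptor betaglycan, Acvrl1 (6.96), Acvr1b (6.89) and Bmpr2 (6.82), and the exceptions were Acvr1c and Bmpr1b. The BMP receptor genes Bmpr1a and Bmpr2 had p300 at an end, of fold 6.41 and 6.50. Within 50 kb Bmpr1a (8.88), Tgfbr3 (7.52), Acvr1 (7.47) and Bmpr2 (6.50) had the highest. All 4 other SMAD genes had H3K4me3, Smad9 with 7.20, Smad1 with 6.33, Smad5 with 5.86 and Smad6 with 4.92. Smad6, which encodes the inhibitory SMAD of the BMP branch, had p300 at an end with a fold of 7.97 and 160 reads, and Smad9 with 6.23. Within 50 kb Smad9 reached 6.88 and Smad5 4.90, and Smad1 had no p300 peak.

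Genes that store or free the ligands had H3K4me3 at an end in 6 of 11, led by Itgb8 (fold 10.6), an integrin subunit that activates latent TGF-beta, and then Ltbp1 (8.55), Nrros (7.31) and Thbs1 (6.95). Itgb8 was also the one with p300 at an end (7.74), followed within 50 kb by Ltbp3 (7.02), Furin (6.71) and Ltbp2 (5.70). Repressors, ubiquitin ligases and adaptors had H3K4me3 in 13 of 15, all but Tgif2 and Nedd4l, with Ppm1a (8.91), Smurf2 (8.79), Rnf111 (8.49) and Usp15 (7.80) the strongest by fold. The phosphatase gene Ppm1a and the corepressor gene Tgif1 had p300 at an end, of fold 8.26 and 3.73, and within 50 kb Smurf1 (7.66), Smurf2 (6.73) and Nedd4l (6.72) came next after Ppm1a. Of 16 genes that TGF-beta or BMP signals are known to switch on or off, 12 had H3K4me3 at an end, led by Fn1 (11.9), Snai2 (9.08), Bhlhe40 (8.66) and Ccn2 (8.48), and Cdkn2b, Cdkn1a, Zeb1 and Pthlh did not. In that group 6 had p300 at an end, and the folds included 7.70 at Bhlhe40, 4.21 at Id3, 4.15 at Cdkn1a, 3.78 at Id1 and 2.79 at Id2. The strongest p300 peaks within 50 kb in the group were those of Bhlhe40 (9.15) and Zeb1 (9.08), and Cdkn1a reached 5.35.

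**Figure D4:**
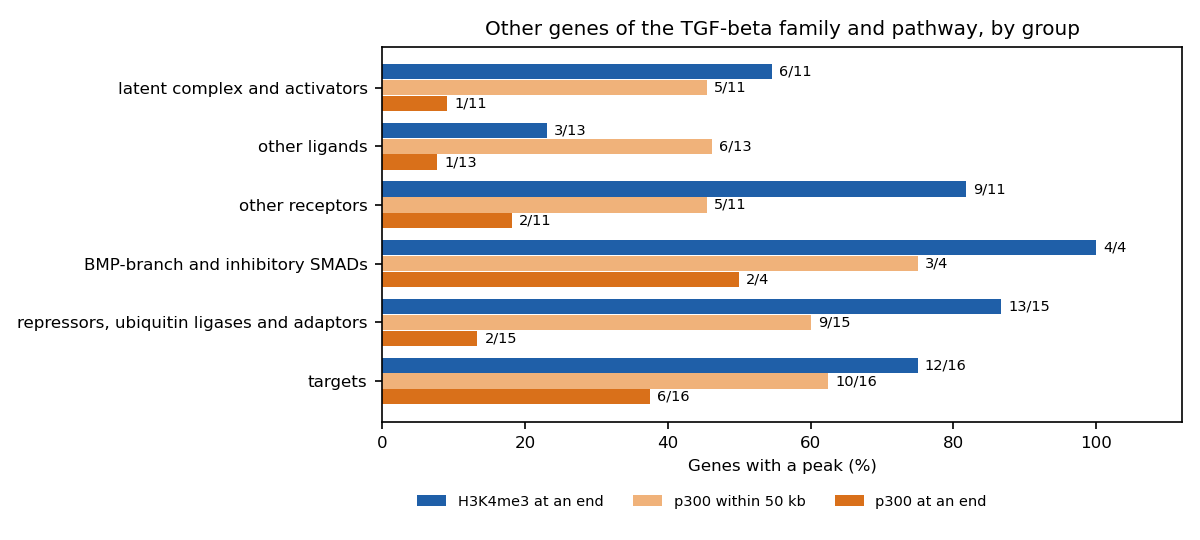
Share of genes (%) with H3K4me3 at an end (blue), p300 within 50 kb (light orange) and p300 at an end (dark orange) in 6 groups of other genes of the TGF-beta family and pathway, with the count beside each bar. Other ligands have the lowest share with H3K4me3, 3 of 13, and the SMADs of the BMP branch the highest, 4 of 4.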

How the data were processed

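CUT&Tag of B16 cells was read from 2 deposited peak lists, 1 library each for H3K4me3 and p300, grouped by title. The submitters' processing notes name the build mm10 and the tools deepTools, Picard 2.22.4, Bowtie2 2.2.5 and Trim Galore. The sources used here do not give the peak caller, any control library or any pooling. For each peak the authors deposited a start, end and summit, a fold enrichment (ratio), −log10 p, −log10 q and a score, and nearly every deposited score was the whole part of 10 times −log10 q. These values were used only within their own list.

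Summit and background reads were solved from fold, taken as (summit + 1) over (background + 1), and −log10 p, taken as a Poisson tail. Whole numbers gave −log10 p within 0.002 for 99.99% of the H3K4me3 peaks solved and for all p300 peaks solved. The solver and the interval counts were tested on simulated data. PCR copies can raise these reads.

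Gene positions were those of RefSeq on GRCm38.p6, and 24 H3K4me3 and 17 p300 peaks off the nuclear chromosomes were left out. Peaks overlapped when they shared 1 bp. Every member was named, and of each pathway group the genes with the highest folds (up to 4 for each mark) and minorities of 4 or fewer, except that the values of 1 pathway gene, which the group counts include, are not reported here. Members and lists were chosen with earlier results of these data known. The counts of 3 or 5 peaks inside a gene, the shared gene ends and the background reads were added after the data were seen. Python 3.11.15, pandas 2.3.3 and scipy 1.17.1 were used. Alternatives changed the window, the reach, the overlap rule, the part of each list and the set of background genes.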

Additional observations from a re-analysis of the deposited data

How the results depend on the processing

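No paired analysis was possible because each antibody has 1 library, and no test was made. Of 47 alternative values, 28 stayed within 1.5 times the main one and 19 did not. H3K4me3 at an end was found for 8 of the 10 genes with a window of 500 bp (47.5% of all protein-coding genes) and 9 with 2 kb (53.5%). For p300 the count was 1, Smad7, with each window and each part of the list. At annotated starts only, it was 0 of the 5 genes in the promoter table (14.4%), which does not place the start of Smad7. The background fell along with the counts when lists were halved or the reach was shortened, and its share is in brackets. In the stronger 50% of each list by fold, 5 of the genes had H3K4me3 at an end (34.4%), 3 had it inside (12.0%), 3 had p300 within 50 kb (27.6%) and 1 had p300 inside (4.40%), and 33.3% of 3 p300 peaks overlapped H3K4me3 (62.1% of all p300 peaks). In the stronger 50% by −log10 q, 6 had H3K4me3 at an end (42.3%) and 3 had it inside (10.7%). There 4 had p300 within 50 kb (27.1%) and 1 had p300 inside (4.53%), and 40.0% of 5 p300 peaks overlapped H3K4me3 (63.0%). In the stronger 50% by summit reads, added after the data were seen, 6 had H3K4me3 at an end (41.5%) and 4 had it inside (10.3%). By reads 4 had p300 within 50 kb (26.3%) and 1 had p300 inside (4.52%). The genes kept at an end differed, with Skil and Smad2 kept by fold and Smad3, Smad7 and Tgfb3 by reads. The count of p300 within 50 kb was 4 with a reach of 25 kb (34.5%) and 8 with 100 kb (55.9%). It was 3 with each peak given to its nearest protein-coding gene (21.7%). Among the 70 pathway genes the stronger 50% by fold left 23 with H3K4me3 at an end (34.4%) and 9 with p300 at an end (6.93%). It left 19 with p300 within 50 kb (27.6%), and the stronger 50% by −log10 q left 8 with p300 at an end (6.5%). The background for p300 at an end was 26.5% among genes with H3K4me3 at an end, and that for p300 inside was 16.7% among genes of the same length classes. Gene strand was used only for genes in the promoter table, so an end can be a start or a 3′ end. Whether the background level, depth or neighbouring genes set the differences between genes was not tested.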
